A study of Mus musculus with 8 samples.

Results

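Mucins, trefoil factors and mucosal secretory genes were examined in thymic epithelial cells (TECs) of the embryonic mouse. The group holds 10 genes, chosen by symbol out of 55450 in the expression table: *Muc1*, *Muc4*, *Muc13*, *Muc20*, *Tff1*, *Tff2*, *Tff3*, *Agr2*, *Gp2*, and *Reg3g*. RNA-sequencing compared 3 populations of CD45-negative EpCAM-positive TECs sorted from E17 (embryonic day 17) embryos that carried tdTomato knocked into *Ccl21a* together with a Venus transgene reporting *Tnfrsf11a*, the gene for RANK. CCL21+RANK- TECs (tdTomato-positive, Venus-negative; n = 3 libraries) and CCL21-RANK+ TECs (tdTomato-negative, Venus-positive; n = 3) were set beside CCL21-RANK- TECs, which lacked either fluorescence (n = 2). They are called CCL21+, RANK+, and double-negative (DN) TECs from here on. All groups shared both reporters, and no group without them was available, so the sort reports reporter fluorescence rather than RANK or CCL21 protein. The number of embryos behind a library is not stated in the sources used here, and p-values therefore measure the spread between these libraries, which may in part be technical.

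Mucins are large glycoproteins whose protein backbone is densely decorated with O-linked sugars. Some are tethered to the apical membrane of epithelia, such as Muc1, Muc4, Muc13, and Muc20, and others are secreted and form mucus gels. Trefoil factors are small secreted peptides of mucous epithelia that are released together with mucins and take part in epithelial repair, Agr2 is a disulfide isomerase of the endoplasmic reticulum needed for mucin production, Gp2 is a membrane glycoprotein of the pancreas and of microfold cells, which take up particles from the gut lumen, and Reg3g is a secreted lectin that acts on Gram-positive bacteria. In the thymus, medullary TECs are known to transcribe many genes otherwise restricted to peripheral tissues, in part through the regulator Aire, and include cells that resemble mucosal cell types.

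The sort markers followed the labels in RNA. *Tnfrsf11a* was at 8.78, 9.44, and 10.3 RPKM (reads per kilobase of exon scaled to the library total) in CCL21+ TECs, 110.8, 93.1, and 107.3 RPKM in RANK+ TECs, and 2.62 and 2.26 RPKM in DN TECs. *Ccl21a* was at 305.5 RPKM or more in CCL21+ TECs and at 6.88 and 8.87 RPKM in DN TECs. In RANK+ TECs it was still at 151.8, 95.9, and 78.2 RPKM. Near-identical gene copies may share its reads, which was not tested. The epithelial marker *Epcam* and the TEC regulator *Foxn1* were at 49.5 RPKM or more in every library, and *Ptprc*, which encodes CD45, was at 0.576 RPKM or less. Totals were 59677315, 46003128, and 55116911 counts in CCL21+ TECs, 57286762, 50146730, and 42751839 in RANK+ TECs, and 67451440 and 71625282 in DN TECs.

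Before the genes are taken one by one, a pair of libraries must be pointed out. Replicate 1 of RANK+ TECs held the highest RPKM of its group for 10 of the 10 genes, and replicate 2 of DN TECs held far more *Agr2* and *Reg3g* RNA than its partner. Selected values with either library left out are given for the 10 genes and for the gene lists.

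Promoter sequences show which of the genes share a recognisable core element. RefSeq (GRCm38.p6) gave a window of 250 bases before to 50 bases after the start site for 7 of the 10 genes, with 8 windows in all because *Muc13* has 2. The hexamer TATAAA, the core of the TATA box, was found on the coding strand of *Muc1*, *Gp2*, *Reg3g*, and *Muc4*. Shown first are the 3 of these genes that were called higher in RANK+ TECs, as reported below, with the hexamer in capitals. *Muc1* lies at chr3:89228806-89229105 (plus strand), *Gp2* at chr7:119459223-119459522 (minus strand), and *Reg3g* at chr6:78468825-78469124 (minus strand). In *Reg3g*, the capitals TTTATA mark the hexamer on the opposite strand and GGGAAACCCC marks a match to the NF-kB consensus. *Agr2*, at chr12:35992675-35992974 (plus strand), is shown because its pattern across the populations differed from the others, and none of the motifs searched was in its window.
Muc1: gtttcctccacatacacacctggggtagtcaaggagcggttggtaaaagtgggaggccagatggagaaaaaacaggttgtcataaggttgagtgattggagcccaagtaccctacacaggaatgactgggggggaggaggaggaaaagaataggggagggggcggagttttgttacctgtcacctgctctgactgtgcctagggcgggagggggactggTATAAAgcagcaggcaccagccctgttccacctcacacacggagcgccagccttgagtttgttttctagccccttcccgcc
Gp2: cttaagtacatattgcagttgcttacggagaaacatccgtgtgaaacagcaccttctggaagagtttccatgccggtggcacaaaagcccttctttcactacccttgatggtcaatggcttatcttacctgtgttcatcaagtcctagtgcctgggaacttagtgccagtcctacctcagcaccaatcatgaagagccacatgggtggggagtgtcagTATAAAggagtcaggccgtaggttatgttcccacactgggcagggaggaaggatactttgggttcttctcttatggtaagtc
Reg3g: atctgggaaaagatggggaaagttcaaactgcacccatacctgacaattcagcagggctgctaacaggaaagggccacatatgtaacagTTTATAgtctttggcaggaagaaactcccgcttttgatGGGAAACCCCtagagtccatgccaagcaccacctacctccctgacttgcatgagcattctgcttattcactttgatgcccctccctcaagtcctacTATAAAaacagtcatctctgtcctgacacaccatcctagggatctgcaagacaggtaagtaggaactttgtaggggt
Agr2: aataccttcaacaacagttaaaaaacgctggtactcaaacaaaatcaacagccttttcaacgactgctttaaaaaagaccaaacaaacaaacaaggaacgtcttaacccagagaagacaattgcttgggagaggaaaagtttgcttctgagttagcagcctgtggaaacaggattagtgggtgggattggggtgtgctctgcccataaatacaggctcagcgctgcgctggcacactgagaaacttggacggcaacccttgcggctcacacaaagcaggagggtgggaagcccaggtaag

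The hexamer began 31 bases before the start site in *Muc1*, 32 bases before in *Gp2*, 27 bases before in *Reg3g*, and 36 bases before in *Muc4*. On either strand it was in 4 of the 8 windows, whereas 13.6% of 32851 promoter windows of the same length held it. The AP-1 heptamer TGAGTCA was in both *Muc13* windows (5.20% of all windows), the forkhead heptamer TGTTTAC in the *Muc20* window (3.65%), and the NF-kB consensus in the *Reg3g* window (8.46%), each searched on both strands and with no overlap between the matches of different motifs. These matches describe letters in a window and not occupied sites.

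Compared with CCL21+ TECs, RANK+ TECs contained more RNA of 7 of the 10 genes: *Muc1*, *Muc13*, *Tff1*, *Tff2*, *Tff3*, *Gp2*, and *Reg3g*. None of the 10 was called lower. In 9 of the 10 every RANK+ library lay above every CCL21+ library, as in 36.9% of all genes tested, though for *Agr2* only by counts near the floor. A call required an adjusted p under 0.05 in edgeR's quasi-likelihood test, more than a 1.5-fold difference, and at least one population averaging above 1 RPKM. By the same rule 15.4% of the 21451 genes tested were called higher and 15.4% were called lower. All 10 genes passed the expression filter, which asks for reads in only as many libraries as the smallest group holds. *Muc13*, *Tff1*, *Tff2*, and *Tff3* passed it through the RANK+ libraries, with 9, 1, 0, and 2 counts in CCL21+ TECs against 1310, 747, 353, and 990. A high fold was thus partly built into their being tested, and the count called and the median rest in part on them. The median log2 fold change of the 10 was 6.41, against 0.11 for all genes tested, or 5.56 with *Tff2*, which had no count in CCL21+ TECs, set to its lower bound. In bulk libraries, fewer cells that express a gene and less RNA per cell cannot be told apart.

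**Figure D1:**
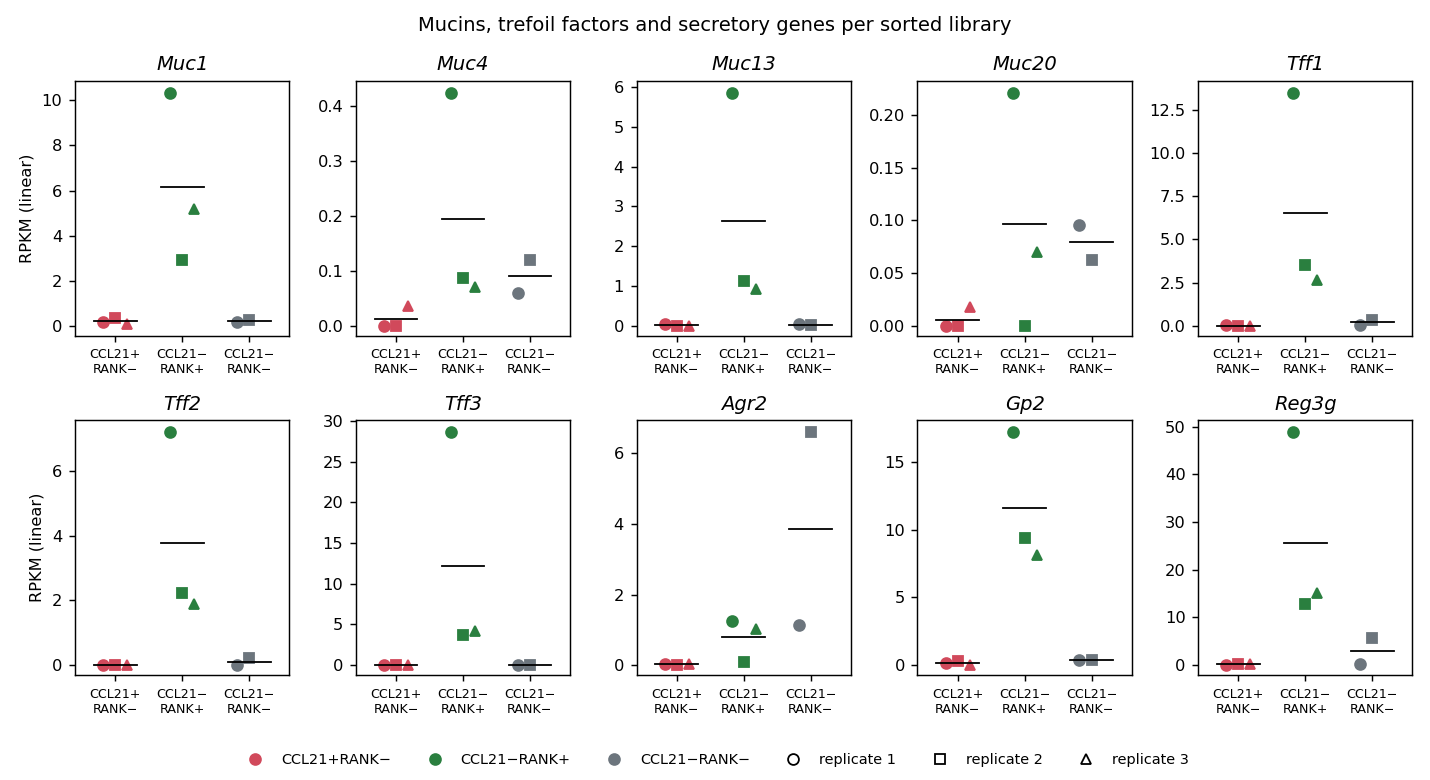
RPKM of each of the 10 genes (linear axes, which differ between panels) in the 8 libraries, with 1 symbol per library shaped by replicate number and a black line at the group mean. RANK+ replicate 1 (green circle) is the highest green point in every panel, and *Agr2* is the gene with its highest point in DN TECs.

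Among the membrane mucins, *Muc1* and *Muc13* were clearly higher in RANK+ TECs, while *Muc4* and *Muc20* stayed below 1 RPKM in every library. *Muc1*, the transmembrane mucin of most simple epithelia (chromosome 3, 89229057 to 89233381, plus strand), was at 0.171, 0.343, and 0.093 RPKM in CCL21+ TECs, 10.3, 2.91, and 5.19 RPKM in RANK+ TECs, and 0.190 and 0.244 RPKM in DN TECs. Every RANK+ library exceeded every other library, and the remaining populations overlapped. The log2 fold change was 4.76 (SE 0.59, adjusted p = 0.000113 from edgeR) over CCL21+ TECs, and 5.46 without CCL21+ replicate 2.

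*Muc13*, a transmembrane mucin of the intestine and airway (chromosome 16, 33794037 to 33819934, plus strand), was at 0.044, 0, and 0.0060 RPKM in CCL21+ TECs, 5.86, 1.12, and 0.924 RPKM in RANK+ TECs, and 0.039 and 0.014 RPKM in DN TECs. The RANK+ libraries were again set apart from all others, with replicate 1 well above its partners. The log2 fold change over CCL21+ TECs was 6.99 (SE 1.09, adjusted p = 0.000498 from edgeR). It was 9.23 without CCL21+ replicate 1, which held 8 of the 9 counts in that population.

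*Muc4* (chromosome 16, 32735886 to 32782391, plus strand), a large mucin that is known to interact with the receptor ErbB2, was at 0, 0, and 0.035 RPKM in CCL21+ TECs, 0.425, 0.087, and 0.072 RPKM in RANK+ TECs, and 0.061 and 0.120 RPKM in DN TECs. Its difference between RANK+ and CCL21+ TECs had an adjusted p of 0.0284 in edgeR (log2 fold change 3.91, SE 1.30), but its mean of 0.194 RPKM missed the level required for a call. Leaving out a library gave 2.70 (edgeR adjusted p = 0.109) without RANK+ replicate 1, 3.32 (0.0536) without CCL21+ replicate 1, and 3.42 (0.0733) without CCL21+ replicate 2, and without CCL21+ replicate 3 the remaining CCL21+ libraries were at 0. *Muc20* (chromosome 16, 32777419 to 32797435, minus strand), another membrane mucin, was at 0, 0, and 0.018 RPKM, then 0.221, 0, and 0.070 RPKM, and then 0.096 and 0.062 RPKM in the same order of populations. Its RANK+ libraries overlapped those of the other populations. The log2 fold change of 3.75 (SE 1.63) over CCL21+ TECs had an adjusted p of 0.0773 in edgeR. It was 2.34 (edgeR adjusted p = 0.271) without RANK+ replicate 1 and 4.34 (0.0194) without RANK+ replicate 2, and CCL21+ replicate 3 held all counts of its population. The ends of *Muc4* and *Muc20* overlap on opposite strands, and since the strand setting of the counting is not given in the sources used here, their low counts are uncertain.

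The 3 trefoil factor genes lie side by side on chromosome 17 on the minus strand (*Tff3* at 31125306 to 31129646, *Tff2* at 31141049 to 31144282, *Tff1* at 31161395 to 31165277), and all 3 were nearly silent outside RANK+ TECs. *Tff1*, known from gastric surface cells, was at 0.024, 0, and 0 RPKM in CCL21+ TECs, 13.5, 3.55, and 2.63 RPKM in RANK+ TECs, and 0.063 and 0.338 RPKM in DN TECs. *Tff2*, known from gastric mucous neck cells, was at 0 RPKM in all 3 CCL21+ libraries, 7.20, 2.22, and 1.88 RPKM in RANK+ TECs, and 0 and 0.215 RPKM in DN TECs. *Tff3*, known from intestinal goblet cells, was at 0.034, 0, and 0.037 RPKM in CCL21+ TECs, 28.6, 3.72, and 4.22 RPKM in RANK+ TECs, and 0 RPKM in both DN libraries. For each of the 3 genes, the lowest RANK+ library was above the highest of the other 5.

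The summed counts behind these values show how firm the folds are. *Tff1* had 747 counts in RANK+ TECs against 1 in CCL21+ TECs, a ratio per total count of 800 with a 95% counting interval of 143 to 31631 (edgeR adjusted p = 0.000157). Without CCL21+ replicate 1, which held that count, the remaining CCL21+ libraries were at 0. *Tff3* had 990 counts against 2, a ratio of 530 with an interval of 146 to 4382 (edgeR adjusted p = 0.000391). *Tff2* had 353 counts against 0, which places it at least 38.9-fold higher when CCL21+ TECs are set to 3 counts per library (edgeR adjusted p = 0.00167), or at least 21.1-fold without RANK+ replicate 1. These intervals and bounds cover counting error only. Part of *Tff1* overlaps the antisense gene *Gm15318*, which had 11 counts in RANK+ replicate 1 and 0 in the other 7 libraries, beside 543 for *Tff1* in that replicate.

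*Gp2* and *Reg3g* reached the highest levels of the group together with *Tff3*. *Gp2*, the microfold cell receptor for the bacterial pilus protein FimH (chromosome 7, 119442537 to 119459285, minus strand), was at 0.168, 0.337, and 0.045 RPKM in CCL21+ TECs, 17.2, 9.35, and 8.16 RPKM in RANK+ TECs, and 0.349 and 0.377 RPKM in DN TECs. Its RANK+ libraries were the most alike of the genes called, and the log2 fold change over CCL21+ TECs was 5.84 (SE 0.58, adjusted p = 2.67e-05 from edgeR), or 6.67 without CCL21+ replicate 2. *Reg3g* (chromosome 6, 78466269 to 78468872, minus strand) was at 0.127, 0.165, and 0.180 RPKM in CCL21+ TECs, 48.9, 12.8, and 15.2 RPKM in RANK+ TECs, and 0.140 and 5.6 RPKM in DN TECs. Every RANK+ library exceeded the rest, and the log2 fold change over CCL21+ TECs was 7.20 (SE 1.17, adjusted p = 0.000633 from edgeR).

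*Agr2* departed from this pattern, because its highest level was in DN TECs, though in replicate 2 alone. The gene (chromosome 12, 35992907 to 36004087, plus strand) was at 0.026, 0, and 0.042 RPKM in CCL21+ TECs, 1.26, 0.093, and 1.01 RPKM in RANK+ TECs, and 1.13 and 6.61 RPKM in DN TECs. RANK+ and DN libraries overlapped, and both lay above the CCL21+ libraries. For RANK+ replicate 2 this rested on 6 counts against 3 in CCL21+ replicate 3, near the floor of 3 counts. Its log2 fold change between RANK+ and CCL21+ TECs was 4.83 (SE 1.17, adjusted p = 0.00636 from edgeR), but a mean of 0.788 RPKM kept it from being called. With 1 library left out, the log2 fold change ranged from 4.36 to 5.44, and *Agr2* was called without RANK+ replicate 2.

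**Figure D2:**
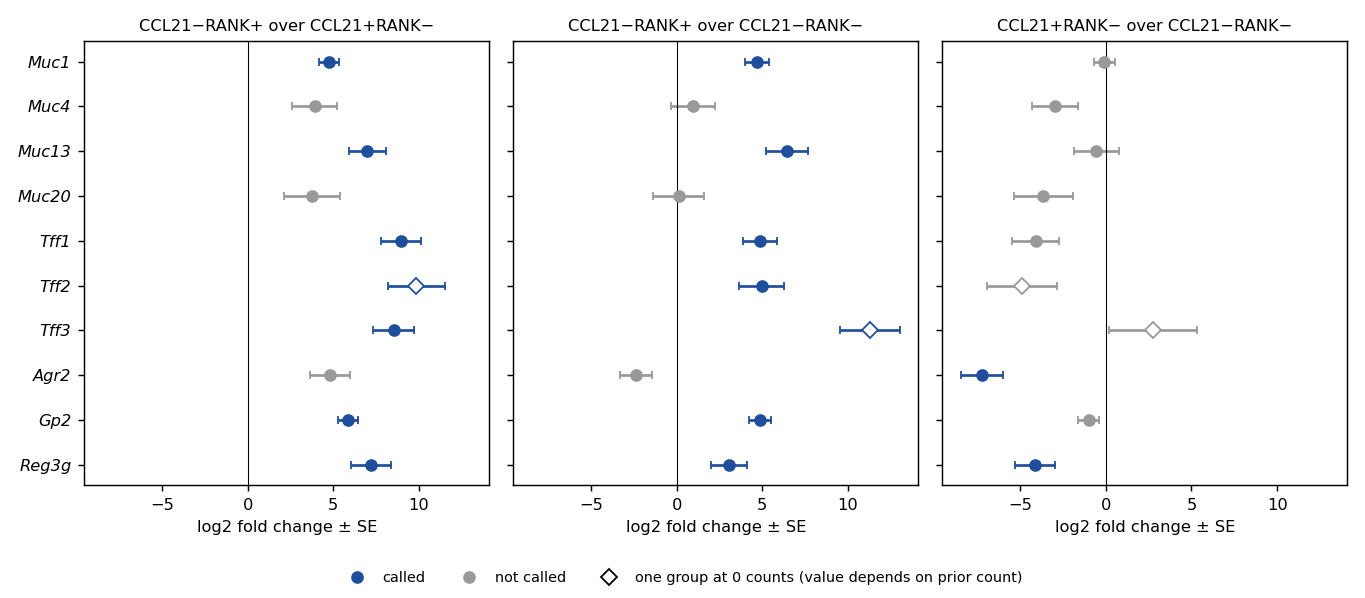
Log2 fold changes with standard errors from edgeR for the 10 genes in the 3 comparisons (columns), where blue marks a call, grey no call, and open diamonds genes with 0 counts in one of the populations compared. *Agr2* is the only gene placed left of 0 in the comparison of RANK+ with DN TECs, at -2.39, and is not called there.

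Within RANK+ TECs, the order of mean levels per exon length was *Reg3g* (25.6 ± 20.2 RPKM, SD, n = 3), *Tff3* (12.2 ± 14.2), *Gp2* (11.6 ± 4.92), *Tff1* (6.55 ± 6.02), *Muc1* (6.15 ± 3.81), *Tff2* (3.77 ± 2.98), *Muc13* (2.63 ± 2.79), *Agr2* (0.788 ± 0.615), *Muc4* (0.194 ± 0.200), and *Muc20* (0.097 ± 0.113). The ranges of every pair of neighbours in this order overlapped. Within libraries, the gene ranked higher exceeded the next in 3 of 3 RANK+ libraries for *Reg3g* over *Tff3*, *Gp2* over *Tff1*, *Muc1* over *Tff2*, *Tff2* over *Muc13*, *Agr2* over *Muc4*, and *Muc4* over *Muc20*. It did so in 2 of 3 for *Tff1* over *Muc1* and *Muc13* over *Agr2*, and in 1 of 3 for *Tff3* over *Gp2*. These differences were not tested. *Reg3g* stood above 93.3% and *Muc1* above 72.7% of the genes tested in these cells, whereas *Muc4* stood above 15.5%. For scale, *Aire* was at 112.9 ± 18.4 RPKM (SD, n = 3) in the same libraries.

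The 10 genes summed to 0.594, 0.845, and 0.457 RPKM in CCL21+ TECs, 133.5, 35.9, and 39.3 RPKM in RANK+ TECs, and 2.06 and 13.6 RPKM in DN TECs. Replicate 1 of RANK+ TECs thus exceeded its partners by more than the sort markers did. Its RPKM was 7.21 times the mean of replicates 2 and 3 for *Tff3*, 5.72 times for *Muc13*, 3.49 times for *Reg3g*, 2.55 times for *Muc1*, and 1.97 times for *Gp2*. The same ratio was 1.26 for *Aire*, 1.11 for *Tnfrsf11a*, and 1.29 (quartiles 0.959 to 1.94) at the median of the 3306 genes called higher in RANK+ TECs. Of those 3306 genes, 65.8% were highest in replicate 1.

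Without replicate 1, the same comparison still called 7 genes. The log2 fold changes over CCL21+ TECs were then 4.22 for *Muc1* (adjusted p = 0.000224 from edgeR), 5.73 for *Muc13* (0.00110), 7.96 for *Tff1* (0.000287), 7.02 for *Tff3* (0.000296), 5.50 for *Gp2* (6.47e-05), and 6.40 for *Reg3g* (0.00120). With replicate 1 left out, *Tff2* was still without a count in CCL21+ TECs (adjusted p = 0.00461 from edgeR).

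**Figure D3:**
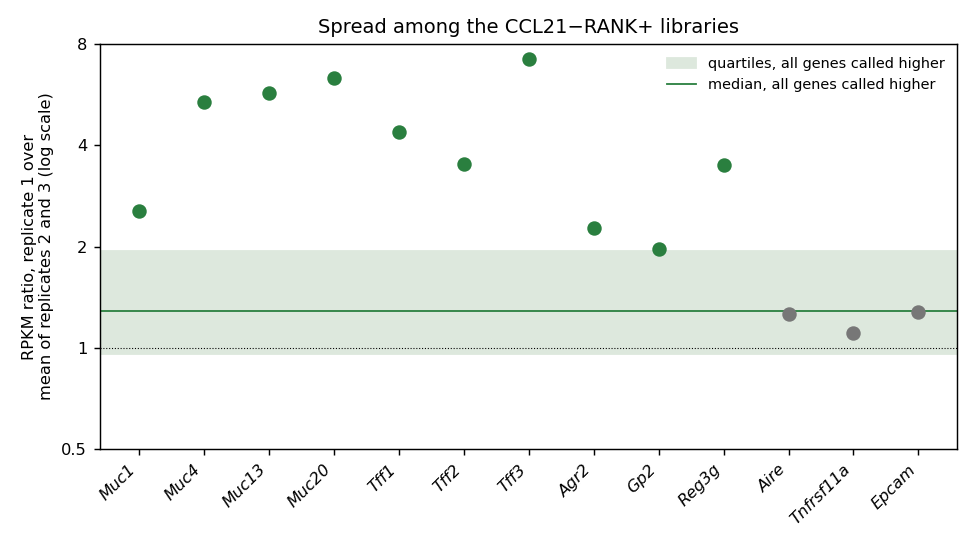
RPKM of RANK+ replicate 1 divided by the mean of replicates 2 and 3 (log axis) for the 10 genes in green and for *Aire*, *Tnfrsf11a*, and *Epcam* in grey. The shaded band spans the quartiles of the 3306 genes called higher in RANK+ TECs (0.959 to 1.94), and the 10 genes lie between 1.97 and 7.21.

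Compared with DN TECs, RANK+ TECs again contained more RNA of *Muc1*, *Muc13*, *Tff1*, *Tff2*, *Tff3*, *Gp2*, and *Reg3g*, which were the 7 of 10 genes called higher, and none was called lower. In the same 7, every RANK+ library lay above both DN libraries, as in 38.8% of all genes tested. Of all genes tested, 14.4% were called higher and 15.1% lower. This comparison shares the RANK+ libraries with the one before. The limit of the expression filter applies here too to *Muc13*, *Tff1*, *Tff2*, and *Tff3*. The log2 fold changes were 4.68 for *Muc1* (SE 0.69, adjusted p = 0.000422 from edgeR), 6.43 for *Muc13* (SE 1.24, 0.00206), 4.88 for *Tff1* (SE 0.99, 0.00288), 4.96 for *Tff2* (SE 1.30, 0.0151), and 4.86 for *Gp2* (SE 0.64, 0.000211). *Tff3*, with 990 counts against 0, was at least 139-fold higher (edgeR adjusted p = 0.000817), or at least 45.3-fold without RANK+ replicate 1 (0.000445).

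Several of these values moved when a single library was left out. Without RANK+ replicate 1, the log2 fold changes over DN TECs were 4.15 for *Muc1* (adjusted p = 0.000722 from edgeR), 5.16 for *Muc13* (0.00438), 3.89 for *Tff1* (0.00752), 4.17 for *Tff2* (0.0429), and 4.52 for *Gp2* (0.000456). Without DN replicate 2 they were 4.79 for *Muc1* (adjusted p = 0.00672 from edgeR), 5.81 for *Muc13* (0.0267), 6.40 for *Tff1* (0.00950), and 4.84 for *Gp2* (0.00441), and *Tff2* had no count in the remaining DN library. Without DN replicate 1, *Muc13* was at 7.40, *Tff1* at 4.17, and *Tff2* at 4.02, and *Tff2* was no longer called (edgeR adjusted p = 0.0507).

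*Reg3g* was called in this comparison with a log2 fold change of 3.07 (SE 1.05, adjusted p = 0.0351 from edgeR). It was 7.27 (adjusted p = 0.000613 from edgeR) without DN replicate 2, 2.10 (0.0407) without DN replicate 1, and 2.28 (0.0937) without RANK+ replicate 1. The call was lost in 5 of 17 alternatives, among them without CCL21+ replicate 2 (edgeR adjusted p = 0.0537), in a fit of only the libraries compared (0.0658), and where the test itself asked for more than a 1.5-fold difference (0.0563). *Agr2* was at -2.39 (SE 0.94, adjusted p = 0.0599 from edgeR) and was not called. It was called lower in RANK+ TECs without DN replicate 1 (-3.15, adjusted p = 0.0389 from edgeR) and with no expression filter (-2.33, 0.0172), whereas without DN replicate 2 it was at -0.74 (0.688). *Muc4* and *Muc20* were at 0.97 (SE 1.28, adjusted p = 0.568) and 0.11 (adjusted p = 0.958) in edgeR.

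The third comparison set the 2 populations without RANK fluorescence against each other. *Agr2* and *Reg3g* were called lower in CCL21+ than in DN TECs, 2 of the 10 genes, and 0 were called higher. Of all genes tested, 3.66% were called lower and 4.35% higher. Every CCL21+ library lay below both DN libraries in 5 of the 10 genes (*Muc4*, *Muc20*, *Tff1*, *Agr2*, and *Gp2*), as in 20.5% of all genes tested. *Agr2* had a log2 fold change of -7.22 (SE 1.24, adjusted p = 0.00569 from edgeR), and every CCL21+ library lay below both DN libraries. *Reg3g* had a log2 fold change of -4.13 (SE 1.15, adjusted p = 0.0466 from edgeR), although its libraries overlapped, since DN replicate 1 held 0.140 RPKM.

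Without DN replicate 2, *Reg3g* had a log2 fold change of 0.073 (adjusted p = 1.0 from edgeR) and *Agr2* of -5.58 (adjusted p = 0.0573), and neither was called. Without DN replicate 1 they were at -5.09 and -7.97, and without CCL21+ replicate 3 *Agr2* was at -7.83. The *Reg3g* call was lost in 11 of 17 alternatives, among them some with all libraries present: DESeq2 size factors (edgeR adjusted p = 0.0573), upper-quartile scaling (0.0513), removal of *Gm26917* and *Gm42418* (0.0523), and a test of more than a 1.5-fold difference (0.104). *Tff1* had a log2 fold change of -4.08 (SE 1.36, adjusted p = 0.0870 from edgeR), and *Muc1*, *Muc13*, and *Gp2* were at -0.083, -0.55, and -0.98, with edgeR adjusted p of 0.359 or more. With 1 library left out, *Tff1* ranged from -6.03 to -2.55 and *Gp2* from -1.77 to -0.48. The adjusted p of *Tff1* crossed 0.05 in 3 of 15 alternatives, but its mean was below the 1 RPKM a call requires.

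Other secretory genes set DN replicate 2 apart from replicate 1. The airway secretoglobins *Scgb3a1* and *Scgb3a2* were at 0.570 and 0.017 RPKM in replicate 1 and at 18.05 and 45.8 RPKM in replicate 2, whereas *Scgb1a1*, another member of that family, was at 0 RPKM in both and the airway gene *Bpifb1* at 0 and 0.0039 RPKM. The gel-forming airway mucin *Muc5b* was at 1.51 and 6.74 RPKM, *Agr2* differed 5.87-fold, and *Reg3g* 39.9-fold. The median ratio between these replicates was 1.16 among genes called higher in DN than in CCL21+ TECs. The airway secretory gene *Bpifa1* was high in both replicates, at 103.7 and 123.3 RPKM. *Nkx2-1*, the regulator that defines lung and thyroid epithelium, was at 0 RPKM in replicate 1 and 0.241 RPKM in replicate 2, whereas the lung surfactant gene *Sftpc* was at 0 RPKM in both and *Sftpb* was at 0.0075 and 0 RPKM. *Nkx2-1* was not particular to DN replicate 2, since it was at 0.025, 0, and 0.280 RPKM in RANK+ TECs. Whether airway, lung, or thyroid cells contributed to the *Agr2* and *Reg3g* values was not tested.

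**Figure D4:**
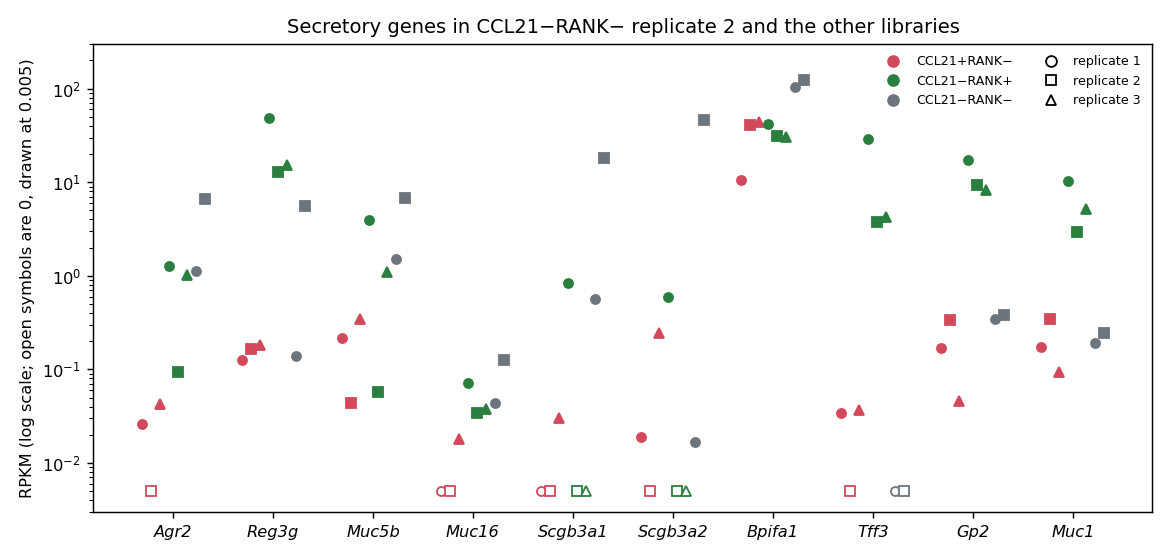
RPKM (log axis) of 10 secretory genes in the 8 libraries, coloured by population and shaped by replicate, with open symbols at the bottom for values of 0. The grey square, DN replicate 2, is the highest grey symbol for *Agr2*, *Reg3g*, *Muc5b*, *Muc16*, *Scgb3a1*, and *Scgb3a2*, and lies close to the grey circle of replicate 1 for *Gp2* and *Muc1*.

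Gene lists around mucus production were compared with the 10 genes. Of 12 other mucins and mucin-like genes, 3 were called higher in RANK+ than in CCL21+ TECs and 1 lower, where 15.4% of all genes tested were called in each direction. The median log2 fold change was 6.21, or 5.04 with genes at 0 counts set to their bounds, and rests in part on genes that were not called and that passed the expression filter through the RANK+ libraries, such as *Muc6* (1 count against 329), *Muc19* (2 against 827), and *Mucl1* (0 against 106). *Muc5ac*, the gel-forming mucin of stomach and airway surfaces, was at 0.011, 0.0061, and 0.040 RPKM in CCL21+ TECs and 8.33, 1.46, and 2.32 RPKM in RANK+ TECs (log2 fold change 7.54, SE 0.89, adjusted p = 8.29e-05 from edgeR). *Mucl2* was at 0, 0.104, and 0 RPKM against 6.37, 1.93, and 1.23 RPKM. *Muc3* was called higher, though not without RANK+ replicate 1. Its relative *Muc3a*, the mucin of the list with the highest mean over the 8 libraries, was called lower by 0.64 on the log2 scale with overlapping libraries. That call was lost when DN replicate 2 was left out. Both genes are uncertain where reads cannot be assigned between related copies. *Muc2*, the gel-forming mucin of the gut, averaged 0.538 RPKM in RANK+ TECs and was too low to be called.

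Enzymes that build the O-linked sugars of mucins moved in both directions. Of 23, 9 were called higher in RANK+ than in CCL21+ TECs and 5 lower, with a median log2 fold change of 0.86. *Gcnt1*, which makes core 2 branches, was at 0.032, 0.026, and 0.0031 RPKM in CCL21+ TECs and 6.09, 2.52, and 3.12 RPKM in RANK+ TECs (log2 fold change 7.40, SE 0.57, adjusted p = 5.47e-06 from edgeR). *Fut2*, the secretor fucosyltransferase, was higher by 2.56 (1.78 and not called without RANK+ replicate 1), *Galnt4*, an initiating transferase, by 1.82, and *Gcnt4* by 1.58 on the log2 scale. *C1galt1*, which makes the core 1 structure, was lower by 0.96 on the log2 scale, and *Galnt2*, the enzyme with the highest mean over the 8 libraries, averaged 17.2 RPKM in CCL21+ TECs and 12.3 RPKM in RANK+ TECs and was called lower.

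Of 18 tested markers of goblet and airway secretory cells, 8 were called higher in RANK+ than in CCL21+ TECs and 3 lower (median log2 fold change 2.88). Some passed the expression filter through the RANK+ libraries, such as *Klk1* (0 counts in CCL21+ TECs against 526). *Klk1*, *Zg16*, and *Foxa2* were nearly silent in CCL21+ TECs and averaged 2.99, 2.201, and 1.39 RPKM in RANK+ TECs. *Klk1* encodes tissue kallikrein, *Zg16* a goblet cell lectin, and *Foxa2* a forkhead regulator of endodermal epithelia. *Klk1* was at least 56.8-fold and *Zg16* at least 48.8-fold higher, or at least 21.6-fold and 22.9-fold without RANK+ replicate 1. The 3 genes called lower were *Creb3l1*, *Creb3l4*, and *Clca2*. They averaged 5.11, 1.88, and 5.32 RPKM in CCL21+ TECs and 1.17, 0.68, and 1.85 RPKM in RANK+ TECs. *Fcgbp*, a mucus-associated protein and the gene of the list with the highest mean over the 8 libraries, was at 78.0, 56.0, and 39.2 RPKM in CCL21+ TECs, 161.1, 77.8, and 51.5 RPKM in RANK+ TECs, and only 3.41 and 2.22 RPKM in DN TECs, and its RANK+ and CCL21+ libraries overlapped.

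Mucosal antimicrobial and defence proteins had the highest count, with 16 of 20 tested genes called higher in RANK+ than in CCL21+ TECs and 0 lower. Their median log2 fold change was 7.72, or 6.23 with genes at 0 counts set to their bounds. Both the count and the median rest in part on genes that passed the expression filter through the RANK+ libraries. Examples are *Reg3b* (0 counts in CCL21+ TECs against 580) and *Reg4* (0 against 480). *Reg3b*, a lectin related to *Reg3g*, was at 0 RPKM in all 5 libraries without RANK fluorescence and at 6.25, 1.31, and 1.97 RPKM in RANK+ TECs, at least 64.0-fold above CCL21+ TECs, or 33.0-fold without RANK+ replicate 1. *Reg4* and the acute-phase gene *Saa1* averaged 2.92 and 2.05 RPKM in RANK+ TECs and had no counts in CCL21+ TECs. Without RANK+ replicate 1 *Reg4* averaged 1.24 RPKM and its bound was at least 22.4-fold in place of 52.6-fold. *Pigr*, which carries IgA across epithelia, was at 3.33, 0.188, and 0.186 RPKM in RANK+ TECs and was called although its mean rested on replicate 1. Without replicate 1, 12 of the 20 genes were called: *Camp* missed the threshold (edgeR adjusted p = 0.0853), and *Pigr*, *Ltf*, and *Saa1* passed it (0.00732, 0.00820, and 0.000298) but fell below 1 RPKM. *Wfdc2* had the highest mean of the list over the 8 libraries, at 8.34 ± 1.29, 19.4 ± 4.10, and 19.0 ± 4.39 RPKM (SD) in CCL21+ (n = 3), RANK+ (n = 3), and DN (n = 2) TECs.

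Microfold cell genes, to which *Gp2* belongs, were called higher in 9 of 12 cases and lower in 1 between RANK+ and CCL21+ TECs (median log2 fold change 3.40). The microfold cell regulator *Spib* was at 13.2, 13.4, and 12.9 RPKM in CCL21+ TECs, 146.0, 120.4, and 124.6 RPKM in RANK+ TECs, and 5.78 and 6.27 RPKM in DN TECs. *Tnfrsf11b*, the decoy receptor for RANK ligand, was at 0.089, 0.131, and 0.122 RPKM in CCL21+ TECs and 62.2, 38.0, and 37.7 RPKM in RANK+ TECs (log2 fold change 8.53, SE 0.34, adjusted p = 2.25e-07 from edgeR). The chemokines *Ccl20* and *Ccl9* averaged 3.04 and 1.94 RPKM in RANK+ TECs, and *Ccl9* had no counts in CCL21+ TECs. Both passed the expression filter through the RANK+ libraries. The highest mean over the 8 libraries was that of *Marcksl1*, at 205.8 ± 19.3 RPKM (SD, n = 3) in CCL21+ TECs and 405.5 ± 10.9 RPKM (SD, n = 3) in RANK+ TECs. *Tnfaip2* was the gene called lower, by 0.93 on the log2 scale.

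The same lists were counted against DN TECs, where 14.4% of all genes tested were called higher and 15.1% lower in RANK+ TECs. Called higher were 3 of 12 other mucins, 8 of 23 O-glycosylation enzymes, 8 of 18 goblet and airway secretory genes, 13 of 20 defence genes, and 9 of 12 microfold cell genes. Called lower were 0, 3, 6, 0, and 0 genes of these lists in that order. Between CCL21+ and DN TECs, where 4.35% of all genes tested were called higher and 3.66% lower, 0 other mucins were called in either direction, 1 O-glycosylation enzyme was called higher in CCL21+ TECs and 1 lower, 1 goblet and airway gene was higher and 4 were lower, 1 defence gene was lower, and 2 microfold cell genes were higher and 1 lower. The lower calls in these lists depended on DN replicate 2. Without it, which leaves 1 DN library, lower calls also became rarer among all genes tested.

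The list counts were also taken with a library left out, over the same genes. Without RANK+ replicate 1, 2 of 12 other mucins, 7 of 23 O-glycosylation enzymes, 6 of 18 goblet and airway secretory genes, 12 of 20 defence genes, and 8 of 12 microfold cell genes were called higher than in CCL21+ TECs, and 1, 5, 3, 0, and 1 were called lower. In that fit 14.7% of all genes tested were called higher and 15.8% lower. Against DN TECs the counts without RANK+ replicate 1 were 2, 6, 5, 11, and 8 higher and 0, 4, 6, 0, and 0 lower in the same order, with 13.5% and 15.1% of all genes tested. Without DN replicate 2 they were 2, 6, 7, 11, and 8 higher and 0, 3, 4, 0, and 0 lower, with 11.1% and 11.8% of all genes tested.

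**Figure D5:**
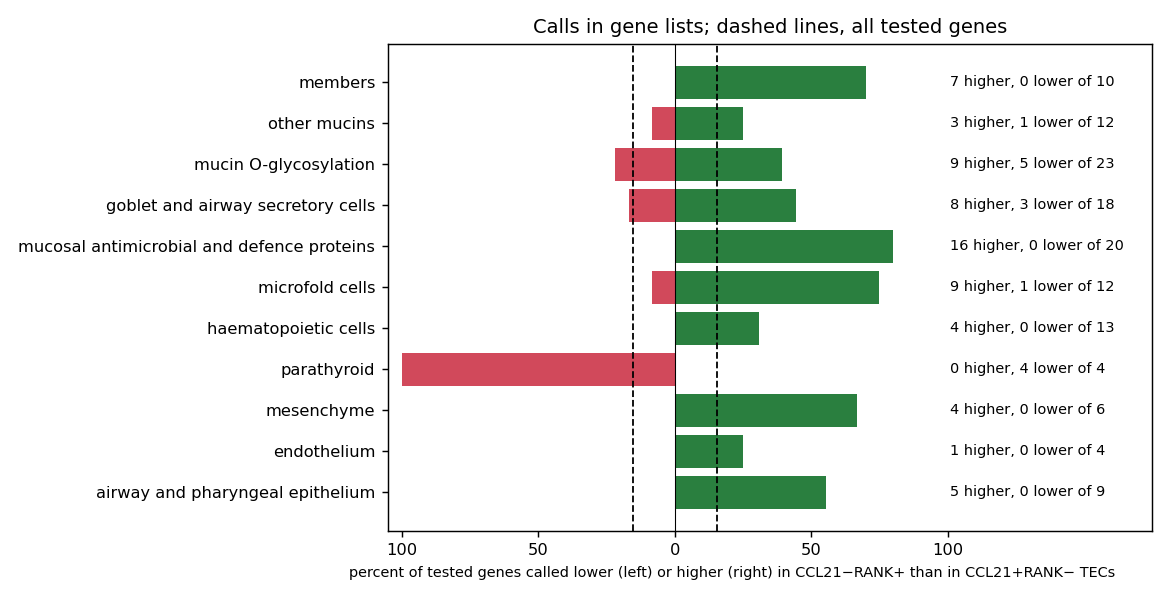
Percent of tested genes in each list called higher (green, right) or lower (red, left) in RANK+ than in CCL21+ TECs, with the counts printed beside the bars and dashed lines at the percent of all tested genes (15.4% in each direction). The row named members holds the 10 genes, with 7 called higher, and parathyroid markers are the list called lower throughout, at 4 of 4.

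Markers of other cell types moved with the comparison of RANK+ with CCL21+ TECs, where 15.4% of all genes tested were called in each direction. Of 13 haematopoietic genes, 4 were called higher in RANK+ than in CCL21+ TECs, and the list summed to 10.6, 4.22, and 5.97 RPKM, then 75.5, 24.4, and 35.5 RPKM, and then 3.60 and 3.15 RPKM in CCL21+, RANK+, and DN libraries. Most of that sum was the lysozyme gene *Lyz2*, at 52.3, 14.7, and 17.8 RPKM in RANK+ TECs, which also belongs to the defence list and has a near-identical copy in *Lyz1*. The myeloid receptor gene *Csf1r* averaged 1.08 RPKM in RANK+ TECs and was called, but averaged 0.757 RPKM and was not called without RANK+ replicate 1. Also called were the T cell genes *Cd4* and *Lck*, at 2.56 and 3.78 RPKM. *Ptprc*, the defining gene of these cells, was at 0.576, 0.177, and 0.422 RPKM there.

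Of 6 mesenchymal genes, 4 were called higher in RANK+ TECs, with sums of 48.9, 25.1, and 31.1 RPKM in RANK+ TECs and 2.26 RPKM or less in CCL21+ TECs. *Col1a1* had the highest mean over the 8 libraries, at 24.0, 7.43, and 15.4 RPKM. The defining marker *Pdgfrb* averaged 0.074 RPKM in CCL21+ TECs and 5.24 RPKM in RANK+ TECs, *Lum* 0.071 and 4.42 RPKM, and *Dcn* 0.665 and 8.85 RPKM, and these were the other genes called. *Pdgfra*, another defining marker, averaged 0.196 and 0.068 RPKM and was not called, nor was *Col3a1*. Of 4 endothelial genes 1 was called higher, and of 9 airway and pharyngeal genes 5 were called higher, among them *Krt13*, *Krt4*, and *Scgb1a1*, the last of which averaged 2.17 RPKM with and 0.645 RPKM without RANK+ replicate 1. The airway and pharyngeal list summed to 48.4, 16.6, and 13.5 RPKM in RANK+ TECs, and its highest mean over the 8 libraries was that of the ciliated cell regulator *Foxj1*, at 20.8, 7.64, and 5.18 RPKM. Without RANK+ replicate 1, *Foxj1* and *Scgb1a1* were not called, and 2 of these 9 genes, 0 of 4 endothelial, 4 of 6 mesenchymal, and 3 of 13 haematopoietic genes were called higher. The sums of the haematopoietic, mesenchymal, endothelial, and airway lists were highest in RANK+ replicate 1, as were the 10 genes. Against DN TECs, 6 of 13 haematopoietic, 4 of 6 mesenchymal, 1 of 4 endothelial, and 4 of 9 airway and pharyngeal genes were called higher. The share of all genes tested was 14.4%. Without RANK+ replicate 1 these counts were 5, 4, 0, and 2. Every RANK+ library lay above both DN libraries in 13 of 13 haematopoietic genes, as in 38.8% of all genes tested. The part of other cell types in the values of the 10 genes was not tested.

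Parathyroid genes ran the other way, and 4 of 4 were called lower in RANK+ than in CCL21+ TECs. Their sum was 7122, 1750, and 1955 RPKM in CCL21+ TECs and 24.9 RPKM or less in the other 5 libraries. The 10 genes of interest summed to less than 1 RPKM in each of those CCL21+ libraries.

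Genes next to the 10 loci did not all share their pattern. *Trim46*, 796 bases from *Muc1*, was called higher in RANK+ than in CCL21+ TECs (log2 fold change 3.27, adjusted p = 0.000115 from edgeR), as were *Umod*, the urinary uromodulin gene 3426 bases from *Gp2* (2.23, adjusted p = 0.00245), and *Tspan13*, 10470 bases from *Agr2* (3.15, adjusted p = 1.72e-05). Farther from their loci, *Krtcap2* near *Muc1* (0.95), *Tfrc*, the transferrin receptor gene near *Muc4* and *Muc20* (1.76), *Umps* near *Muc13* (1.09), and *Ahr* (2.09) and *Bzw2* (1.06) on either side of *Agr2* were also called higher. Called lower were *Abcg1* and *Umodl1*, beside *Tff3*, by 0.75 and 2.99 on the log2 scale, and *Tnk2*, between *Tfrc* and *Muc4*, by 1.19.

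Apart from the trefoil factor genes themselves, the other neighbours tested were not called. *Mtx1* and *Thbs3*, upstream of *Muc1*, were at -0.15 and 0.28, *Rubcn* near *Muc20* at -0.20, *Slc12a8*, *Heg1*, and *Itgb5* near *Muc13* at 1.70, -0.066, and -0.78, and *Gprc5b* near *Gp2* at -0.55. Of these, *Gprc5b* passed an adjusted p of 0.05 (0.00539 from edgeR) and missed only the 1.5-fold difference. Other neighbours passed an adjusted p of 0.05 and missed only the level of 1 RPKM. These were *Ubash3a*, 42596 bases from *Tff1* (3.03, adjusted p = 0.00183 from edgeR), and *Lrrtm4*, 1550005 bases from *Reg3g* (1.66, 0.0173). *Tmprss3*, 13988 bases from *Tff1*, had 161 counts in RANK+ TECs against 3 in CCL21+ TECs (adjusted p = 0.0150 from edgeR) but likewise stayed too low to be called, as did *Gpr139* near *Gp2* (46 counts against 0, 0.0124) and *Reg1* near *Reg3g* (112 counts against 0, 0.00692). *Smbd1*, *Agr3*, *Pdilt*, *Reg2*, and *Gm20594* did not pass the expression filter.

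Genes whose profile was most alike were sought by the Pearson correlation of log2 CPM over the 8 libraries with the mean standardised profile of the 10 genes, which describes these libraries only, since they share the population contrast and the high replicate 1. The nearest were *Tarm1* (r = 0.993), *Gpihbp1* (r = 0.993), *Tdrd9* (r = 0.991), *Nxpe4* (r = 0.991), and *Mical2* (r = 0.990), and 268 protein-coding genes had r over 0.95. Among the 10 genes themselves, the 45 pairwise correlations ranged from 0.212 to 0.992 with a median of 0.771. The most alike gene outside the group was *S100g* for *Muc1* (r = 0.996), *Slc35d3* for *Tff1* (r = 0.996), *Ahcyl2* for *Tff3* (r = 0.999), and *Npbwr1* for *Gp2* (r = 0.997). It was *Cox4i1* for *Muc4* (r = 0.981), *Timm8a2* for *Muc13* (r = 0.995), *Cxcl15* for *Muc20* (r = 0.944), *Gm19345* for *Tff2* (r = 0.998), *Minos1* for *Agr2* (r = 0.970), and *Vmn2r2* for *Reg3g* (r = 0.993).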

How the data were processed

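RNA-sequencing of 8 libraries was analysed from 1 deposited table of expected counts per gene, which the authors made with RSEM 1.3.1 after alignment with STAR 2.5.1 to mm10 (per the submitters' processing notes). The labels name a NEBNext directional kit and the study's methods a TruSeq stranded kit and CLC Genomics Workbench, so the strand setting of the counting is unknown here. All 55450 identifiers matched GENCODE M21, which gave loci and exon lengths. Rounded counts went into edgeR 4.0.16 (R 4.3.3) with TMM, the default filter, the quasi-likelihood test, and Benjamini-Hochberg adjustment over 21451 genes, in 1 fit of 3 group means (common biological coefficient of variation 0.326). RPKM used library totals of 42751839 to 71625282 counts, of which the noncoding gene *Gm26917* took 6.89% to 19.4%. At this depth, counts of 3 or fewer were the floor. No replicate pair agreed within sampling noise (chi-square per gene 84.9 to 301). The exact permutation test of single genes cannot go below 0.1 here and was not used for calls.

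On simulated counts for the comparison of CCL21-RANK+ with CCL21+RANK- TECs, edgeR recovered 56.0% of 200 genes changed 4-fold among 21451 and passed 6 others. This was scored by an adjusted p under 0.05 alone, without the fold and RPKM thresholds of a call. Alternatives were DESeq2 1.42.0 (size factors and Wald test), upper-quartile scaling, other filters and thresholds, the replicate number as a block, a fit of only the compared libraries, removal of *Gm26917* and *Gm42418*, and each library left out. List counts without CCL21-RANK+ replicate 1 or CCL21-RANK- replicate 2, and bounds without the former, were added after seeing the data. The 10 genes and the other lists were chosen with earlier results of these data known. From each list, up to 4 called genes, ranked by absolute log2 fold change of CCL21-RANK+ against CCL21+RANK- TECs, and the most abundant gene were to be named, besides the 2 nearest protein-coding genes on each side of a locus, the 5 most alike genes, and the most alike gene of each of the 10. *Muc2*, *Muc6*, *Muc19*, *Mucl1*, *C1galt1*, *Muc5b*, the secretoglobins, *Bpifa1*, *Bpifb1*, *Creb3l1*, *Creb3l4*, *Clca2*, *Camp*, *Ltf*, *Nkx2-1*, *Sftpb*, *Sftpc*, *Spib*, *Pdgfra*, *Col3a1*, *Muc16*, and *Tnfaip2* were named after their values were seen. Figures were drawn with matplotlib 3.10.9.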

Additional observations from a re-analysis of the deposited data

How the results depend on the processing

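Across the alternatives, the comparison of CCL21-RANK+ with CCL21+RANK- TECs changed least: of 160 values of the 10 genes, 159 kept their direction and their call, and *Agr2* passed without CCL21-RANK+ replicate 2 (log2 fold change 5.35). The adjusted p alone crossed 0.05 in 3 alternatives for *Muc4* and 2 for *Muc20*, which the level of 1 RPKM kept from being called. A filter of at least 10 counts in every library, which removes genes silent in a population, left *Muc1* and *Reg3g* of the 10. Both were called in this comparison and against CCL21-RANK- TECs, and *Reg3g* was called between the populations without RANK. That last comparison instead called 1 of the 10, *Agr2*, with DESeq2 size factors, upper-quartile scaling, the replicate block, glmTreat, or without *Gm26917* and *Gm42418*. By the adjusted p alone, 11516 and 10501 genes passed in the RANK comparisons in place of 6617 and 6332, and glmTreat gave 676 in place of 1720 in the third. With each library left out in turn, 6202 to 6715, 5347 to 6547, and 657 to 2066 genes and 7 to 8, 6 to 7, and 0 to 2 of the 10 were called in the 3 comparisons. The third gave 772 genes without CCL21-RANK- replicate 1 and 657 without replicate 2, each leaving 1 library that is assumed to vary like the others.

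Log2 fold changes that turned sign were never called in either form, except *Reg3g* against CCL21-RANK- TECs: CCL21+RANK- minus CCL21-RANK- gave 0.073 without CCL21-RANK- replicate 2 (range with 1 library left out -5.09 to 0.073). Against CCL21-RANK- TECs, *Muc4* in CCL21-RANK+ TECs was at -0.23 without CCL21-RANK+ replicate 1 (range to 1.44), and *Muc20* at -1.29 without it (range to 0.70), -0.22 without CCL21-RANK- replicate 2, and -1.56 with the replicate block. In CCL21+RANK- TECs, *Muc1* was at 0.085 with the block, 0.03 without CCL21+RANK- replicate 1, 0.30 without its replicate 3, and 0.025 without CCL21-RANK- replicate 2 (range from -0.73), and *Muc13* at 0.42 without CCL21-RANK- replicate 1 (range from -2.80). The causes of these changes were not tested. *Reg3g* in CCL21-RANK+ over CCL21-RANK- TECs lost its call in 5 alternatives: the replicate block (3.77, edgeR adjusted p = 0.0507), glmTreat (0.0563), only the libraries compared (0.0658), and leaving out CCL21-RANK+ replicate 1 (0.0937) or CCL21+RANK- replicate 2 (0.0537). *Tff2* lost it without CCL21-RANK- replicate 1 (0.0507). *Agr2* gained one without CCL21-RANK- replicate 1 (-3.15) and with no expression filter (-2.33). Deviations of same-numbered libraries had correlations of -0.117 to 0.126 in 7 pairs (mean -0.0026). Between CCL21+RANK- and CCL21-RANK+ libraries these were 0.126, 0.048, and 0.071 for replicates 1, 2, and 3, against -0.098 to 0.041 for unlike numbers. Centring makes the 2 CCL21-RANK- libraries mirror images, so pairs with them cannot show pairing. The main fit did not pair libraries, and whether the numbers mark pairs remains unknown. Depth limits *Muc20*, with 51 counts at most in a library, and folds against populations with 3 counts or fewer.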
